A study of Mus musculus with 5 samples.

Results

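A set of 5 zinc handling genes, the metallothioneins Mt1 and Mt2, the zinc exporters Slc30a1 and Slc30a8 and the zinc importer Slc39a14, were followed by cell type, cluster and library in single-cell RNA-seq of mouse pancreatic tumors and islets. They were chosen by name, and all 5 were found among the 36529 gene rows of each table. The tumors came from homozygous Gcgr knockout mice, which lack the glucagon receptor (3 libraries, called A, B and C here in order of cell number). The deposited cells of all 3 libraries are named Tumor 1, while the sample titles number tumor samples 1 to 3. Whether the libraries come from separate tumors is thus not settled, and tumors A, B and C below mean libraries. The islets came from a homozygous Gcgr knockout (1 library) and from a heterozygous Gcgr knockout (1 library), so a knockout allele is present in every library and no wild type was analysed here. Islets hold the glucagon-producing alpha cells, the insulin-producing beta cells, the somatostatin-producing delta cells and the pancreatic polypeptide (PP) cells, and the series concerns tumors that arise from alpha cells once the receptor is lost. All animals had standard chow and no treatment, and strain and age are not given in the sources used here. Gcgr itself had 0, 1 and 3 UMIs (unique molecular identifiers, counted RNA molecules) in tumor libraries A, B and C and 0 in the homozygous islets, against 137 in the heterozygous islets.

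Zinc is stored with insulin in the granules of beta cells, and cells keep their free zinc low. Metallothioneins are small cysteine-rich proteins that bind zinc and copper. Slc30 proteins (ZnT) move zinc out of the cytosol, into vesicles or out of the cell, and Slc39 proteins (ZIP) move it in. The transcription factor Mtf1 senses zinc and switches on Mt1, Mt2 and Slc30a1 through short metal response elements. Metallothionein genes also respond to glucocorticoids and to cell stress.

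Mt1 lies on chromosome 8 (bases 94178883 to 94180327) and Mt2 just before it (94172618 to 94173567), 5316 bases apart, both on the plus strand of GRCm38. Slc30a1 is on chromosome 1 (191906697 to 191913248), Slc30a8 on chromosome 15 (52295553 to 52335798) and Slc39a14 on chromosome 14 (70303467 to 70351452), all protein coding by RefSeq. Since Mt1 and Mt2 moved together below, their upstream windows (250 bases before the RefSeq transcript start, GRCm38.p6) were searched on both strands for the core of the metal response element, TGCACNC or TGCGCNC. The table of windows holds Mt1, Mt2 and Slc30a1. The Mt2 window, chr8:94172368-94172617 on the plus strand, holds 3 matches, drawn in capitals (the last is on the other strand).

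Mt2 upstream window: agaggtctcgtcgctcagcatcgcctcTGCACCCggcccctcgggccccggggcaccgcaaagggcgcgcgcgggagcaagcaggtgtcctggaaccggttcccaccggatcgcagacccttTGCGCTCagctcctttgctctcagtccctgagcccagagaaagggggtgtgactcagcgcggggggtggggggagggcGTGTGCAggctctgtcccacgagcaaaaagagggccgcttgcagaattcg

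The Mt1 and Slc30a1 windows overlap an annotated transcript, so their single matches are set beside those of Mt2 as 27 bases each. Both windows end at a transcript start that lies inside the gene bounds given above, and so do both matches. The Mt1 window begins at base 94178839, so little of the sequence before that gene was searched. Its match count is therefore not comparable with that of Mt2. In each line the start is that of the transcript used for the window. Every line is written 5′ to 3′ on the strand that reads TGC, with the 7 matched bases in capitals.
Mt1, 23 bases before the start, chr8:94179056-94179082, plus strand: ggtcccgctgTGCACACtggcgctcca
Mt2, 223 bases before the start, chr8:94172385-94172411, plus strand: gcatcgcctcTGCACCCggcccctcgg
Mt2, 128 bases before the start, chr8:94172480-94172506, plus strand: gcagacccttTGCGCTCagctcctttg
Mt2, 50 bases before the start, chr8:94172558-94172584, minus strand: ggacagagccTGCACACgccctccccc
Slc30a1, 43 bases before the start, chr1:191906728-191906754, minus strand: aactttgcttTGCACTCggaacccccg
Of 32851 RefSeq windows of the same length, 21.4% hold at least 1 such match and 1.26% hold at least 3. A match is a description of the letters, not of a bound site. The Mt1 and Mt2 transcripts share no stretch of 50 bases with each other or with any other annotated gene, and their longest common run is 20 bases.

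After removal of called doublets 495, 846 and 1084 cells remained in tumor libraries A, B and C, 2843 in the homozygous and 1326 in the heterozygous islets, with medians of 10961 to 26092 UMIs per cell. Levels are in CPM, a gene's share of all UMIs in the pooled cells scaled to 1000000, with exact Poisson intervals (95%) that cover counting error only. Cell types are those the authors deposited. Summed over the cells of each type, the 8 fixed alpha cell markers reached 401518 to 419996 CPM in the tumors, 390922 CPM in homozygous and 390395 CPM in heterozygous alpha cells. A type that the authors left unnamed in the homozygous islets had macrophage markers at 55070 CPM in sum, against 56.7 to 91.8 CPM in the other types of that library.

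Mt1 was low in alpha cells of the homozygous islets and in all 3 tumors, and high in alpha cells of the heterozygous islets. Its level was 42.2 CPM (38.3 to 46.4) in tumor library A, 12.9 CPM (11.5 to 14.5) in B and 66.3 CPM (62.9 to 69.8) in C. In islet alpha cells it was 65.4 CPM (62.1 to 68.9) in the homozygous library and 563 CPM (537 to 589) in the heterozygous one. The heterozygous library alone stood apart, since the tumors and the homozygous alpha cells all lay below 70 CPM.

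Mt2 was likewise high in the heterozygous alpha cells alone. Its level was 7.73, 2.21 and 16.5 CPM in tumor libraries A, B and C, against 18.4 CPM in homozygous and 197 CPM in heterozygous alpha cells. Tumor library B was the lowest of the 5 libraries for both metallothioneins, and its interval overlapped none of the others for either gene. Mt3, the metallothionein best known from brain, stayed at 0.198 to 1.62 CPM in tumor and alpha cells and reached 14.1 CPM in homozygous and 16.4 CPM in heterozygous beta cells. Mt4, known from squamous epithelium, was listed at 0 in tumor cells, beta cells and heterozygous alpha cells and had 1 UMI in homozygous alpha cells.

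**Figure D1:**
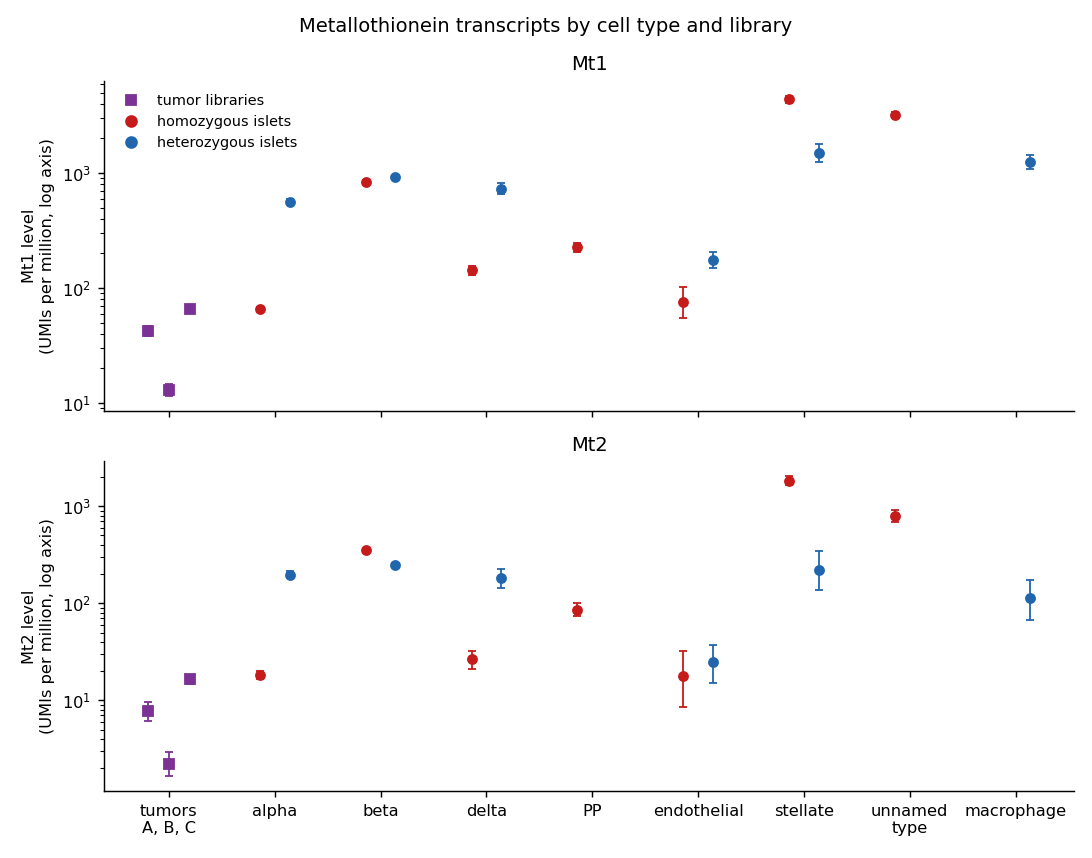
Levels of Mt1 (top) and Mt2 (bottom) in CPM on a log axis, by cell type. Squares are the 3 tumor libraries, circles the homozygous (left of each pair) and heterozygous (right) islets, and bars are exact 95% Poisson intervals of the pooled cells. Homozygous alpha cells (65.4 CPM for Mt1) sit with the tumors, and heterozygous alpha cells (563 CPM) sit near beta cells.

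In the homozygous against heterozygous islets, which have 1 library each and therefore no test, the Mt1 level of alpha cells stood at a ratio of 0.116 (exact interval 0.108 to 0.125). That of Mt2 was 0.0933 (0.0822 to 0.106). Of the 4 members with 10 CPM or more in 1 genotype, these 2 were lower by 2-fold or more, where 12.5% of all 7550 genes measured in alpha cells were lower by that much and 2.26% higher. The median gene of alpha cells had a log2 ratio of -0.38, and relative to it Mt1 had -2.73 and Mt2 -3.05. With hormone transcripts left out of the totals the ratios were 0.139 for Mt1 and 0.111 for Mt2.

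The 2 metallothioneins did not move this way in every cell type. In beta cells the Mt1 level was 838 CPM in homozygous and 926 CPM in heterozygous islets, a ratio of 0.905 (0.875 to 0.934). Mt2 was higher in homozygous beta cells, at 350 CPM against 250 CPM (ratio 1.40, 1.33 to 1.48). Neither passed 2-fold, nor did Slc30a8. In beta cells 2.62% of 5926 genes were higher and 2.83% lower by that much.

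Delta cells resembled alpha cells in direction. Mt1 was at 143 CPM in homozygous and 733 CPM in heterozygous delta cells (ratio 0.195, 0.169 to 0.225), and Mt2 at 26.4 CPM against 183 CPM (0.144, 0.106 to 0.197). Slc30a8 was at 13.6 CPM against 71.3 CPM (0.191, 0.119 to 0.309). These are 3 of the 4 members measured there, in a type where 24.4% of 8607 genes were lower by 2-fold or more, so differences of that size were common. Only 62 heterozygous delta cells were measured, and insulin RNA stood at 93299 CPM of Ins2 in them, against 6507 CPM in homozygous delta cells.

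Endothelial cells had little metallothionein RNA in either genotype. Mt1 was at 76.0 CPM in homozygous and 177 CPM in heterozygous endothelial cells (ratio 0.430, 0.299 to 0.606). For Mt2 the levels were 17.7 and 24.6 CPM, with a ratio interval of 0.302 to 1.59 that spans 1. Of the 5 members Mt1 and Slc39a14 were lower by 2-fold or more, as were 6.59% of 9686 genes, and Slc39a14 rests on 5 and 16 UMIs with an interval that spans 1.

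Stellate cells, the collagen-producing support cells, had the highest Mt1 level of all types in either genotype, though in heterozygous islets its interval overlapped that of macrophages. Both metallothioneins were higher in the homozygous stellate cells. Mt1 was at 4373 CPM in 74 homozygous cells and 1500 CPM in 33 heterozygous cells (ratio 2.92, 2.43 to 3.52), and Mt2 at 1831 and 222 CPM (8.24, 5.25 to 13.7). Per cell, the median Mt1 level was 1804 CPM in homozygous and 896 CPM in heterozygous stellate cells. One homozygous cell held 181 of the 831 Mt1 UMIs, and without the top cell of each library the ratio was 2.57 for Mt1 and 6.65 for Mt2. In stellate cells 21.1% of 11064 genes were higher and 29.1% lower by 2-fold or more. Slc30a8 had 1 and 8 UMIs there and Slc30a1 had 2 in each genotype, too few to describe.

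The macrophage-marker-rich unnamed type of the homozygous islets had 3196 CPM of Mt1 and 797 CPM of Mt2, and the cells typed as macrophages in the heterozygous islets had 1247 CPM of Mt1 and 112 CPM of Mt2. Homozygous PP cells had 226 CPM of Mt1 and 86.2 CPM of Mt2, above the alpha cells of the same library. No heterozygous cells were typed as PP.

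**Figure D2:**
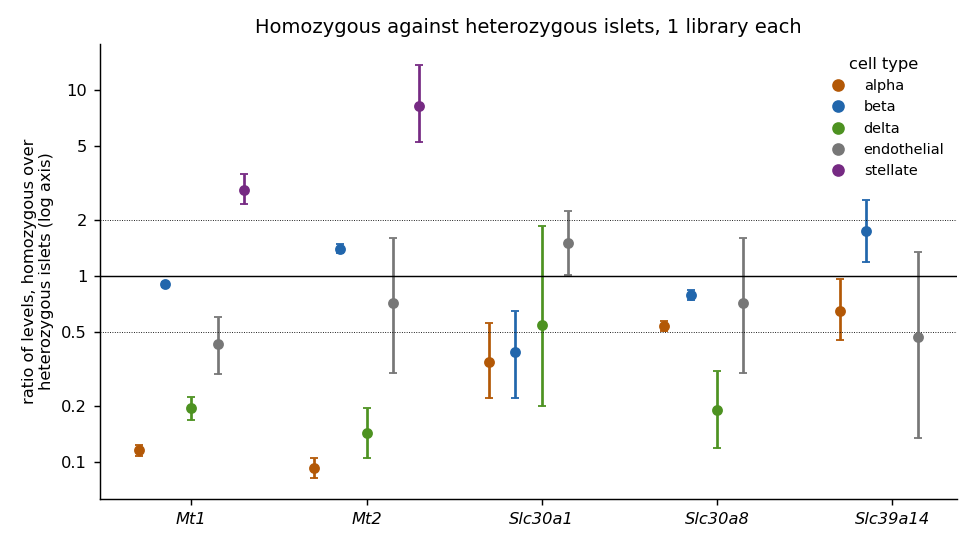
Ratio of the pooled level in homozygous over heterozygous islets for each gene and cell type, on a log axis, with exact 95% intervals (1 library each; pairs with fewer than 5 UMIs in either genotype are not drawn). Dotted lines mark 2-fold in both directions. Mt1 and Mt2 lie near 0.1 in alpha cells, at 0.905 and 1.40 in beta cells and above 2 in stellate cells.

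Ins2, an insulin gene that alpha and endothelial cells should lack, was used as a measure of free RNA in the droplets. It was at 6605 CPM in homozygous and 38150 CPM in heterozygous alpha cells. Heterozygous alpha cells had 14.8 Mt1 UMIs per 1000 Ins2 UMIs, while beta cells of that library had 2.30 and endothelial cells 5.29. Homozygous alpha cells had 9.91 Mt1 UMIs per 1000 Ins2 UMIs and homozygous endothelial cells 14.5, and the Mt1 level of the alpha cells (65.4 CPM) lay within the endothelial interval of 55.0 to 102 CPM.

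In alpha and delta cells, genes of rapid stress response were lower beside the metallothioneins. All 10 measured immediate early and stress genes were lower by 2-fold or more in homozygous than in heterozygous alpha cells (median log2 ratio -3.38). Of all genes measured there 12.5% were. Fos was at 145 CPM in homozygous and 1413 CPM in heterozygous alpha cells, the stress factor Atf3 at 2.93 and 63.7 CPM and the heat shock gene Hspa1a at 74.1 and 371 CPM. In delta cells 9 of 10 were lower and in beta cells 3 of 9, beside 24.4% and 2.83% of all genes. In endothelial cells, where Mt1 was lower, 1 of 10 was lower (Atf3) and 2 were higher (Hspa1a at a ratio of 3.95 and Hspa1b at 2.64). Of all endothelial genes 6.59% were lower and 6.84% higher. In stellate cells, where the metallothioneins were higher, 4 of 10 were lower and 1 was higher (Hspa1b, at 20 against 3 UMIs). Differences of that size were common there, with 29.1% of all genes lower and 21.1% higher. The part of these stress genes in the metallothionein difference was not tested. The summed beta cell markers were at 11506 CPM in homozygous and 55582 CPM in heterozygous alpha cells, and the PP markers at 160107 and 35511 CPM. The part of these was not tested either.

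The 8 glucocorticoid targets split in alpha cells. Of 7 measured, 1 was higher (Zbtb16) and 3 were lower (Nfkbia, Tsc22d3 and Dusp1, which the stress list also holds). For these lists too the shares of all alpha cell genes are 2.26% higher and 12.5% lower. Nfkbia, an inhibitor of NF-kB signalling, was at 16.8 CPM in homozygous and 57.2 CPM in heterozygous alpha cells, while Fkbp5 stood at 39.5 and 33.6 CPM. Of 7 measured IL6-STAT3 targets 2 were higher, Cebpb and Fgl1, and 1 was lower, the feedback inhibitor Socs3 (6.45 CPM against 33.0 CPM). Mtf1 itself had 12.0 CPM in homozygous and 20.5 CPM in heterozygous alpha cells (ratio 0.583, 0.443 to 0.775). Of 7 measured genes of the metal response list, 2 were lower by 2-fold, both of them heat shock genes (Hspa1a and Hspa1b) that the stress list also holds. Of the hormones that travel with zinc, Ins1 and Ins2 were lower and Gcg was not, with 326369 CPM against 339537 CPM. Ins2 is the measure of free RNA used above, and types that should lack it differed the same way. It was at 5239 CPM in homozygous and 33441 CPM in heterozygous endothelial cells, and at 5742 and 33275 CPM in stellate cells. The part of free RNA in the insulin RNA of alpha cells was not tested.

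Within the homozygous islets the alpha cells fall into clusters 2.1 (947 cells), 2.2 (563) and 2.6 (15). Mt1 was at 49.6 CPM (46.0 to 53.4) in cluster 2.1, 89.5 CPM in cluster 2.2 and 355 CPM in 2.6. The last value rests on 1 cell, which held 67.4% of the 46 Mt1 UMIs there, and the median cell of 2.6 had none. Each of these levels lay below the heterozygous alpha cells. Mt2 was at 13.2 CPM in cluster 2.1 and 26.2 CPM in 2.2.

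Most cells with low average Mt1 had none detected. After each cell was thinned to 5000 UMIs, the share of cells with an Mt1 UMI was 10.9% (exact Clopper-Pearson interval 8.21 to 14.0%) in tumor library A, 4.99% (3.62 to 6.68%) in B and 16.0% (13.9 to 18.4%) in C. It was 20.8% (18.7 to 23.0%) in homozygous alpha cells and 80.3% (74.9 to 85.0%) in heterozygous alpha cells. In beta cells the share was 80.7% in homozygous and 88.4% in heterozygous islets. Without thinning the shares were 32.9, 15.8 and 41.6% in tumors A, B and C, 41.7% in homozygous and 91.8% in heterozygous alpha cells. In heterozygous endothelial cells, whose Mt1 level is lower, the thinned share was 52.2%, from 67 cells. Thinning left out 16, 4 and 16 tumor cells of A, B and C, 98 homozygous and 47 heterozygous alpha cells.

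The 5% of cells with the most Mt1 UMIs held 58.2, 68.5 and 60.1% of them in tumor libraries A, B and C, against 46.1% in homozygous and 19.8% in heterozygous alpha cells. This share rises as UMIs per cell fall, so it is set beside members of low level in the tumors, where it was 26.4 to 37.0% for Slc30a1 and 29.5 to 33.1% for Slc39a14. Cells with 500 CPM or more of Mt1 from at least 3 UMIs, a limit set after the values were seen, numbered 12 of 495, 5 of 846 and 30 of 1084 in the tumors, 34 of 1525 homozygous alpha cells and 117 of 306 heterozygous ones. Glucagon RNA (Gcg) was at 379858, 232205 and 321257 CPM in these tumor cells of A, B and C and at 364124, 284391 and 312248 CPM in the other cells of the same libraries. In tumor library C, RNA of other cell types was higher in them: Ins2 was at 14284 CPM against 2310 CPM in the other cells, Sst (somatostatin) at 2831 against 584 CPM, and the macrophage genes C1qa and Lyz2 at 125 and 121 CPM against 28.5 and 14.9 CPM. Slc30a8 was at 101 CPM in them against 291 CPM. The part of these cell types in the Mt1 of library C was not tested. In library A these cells were shallow, with a median of 6423 UMIs against 20047.

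**Figure D3:**
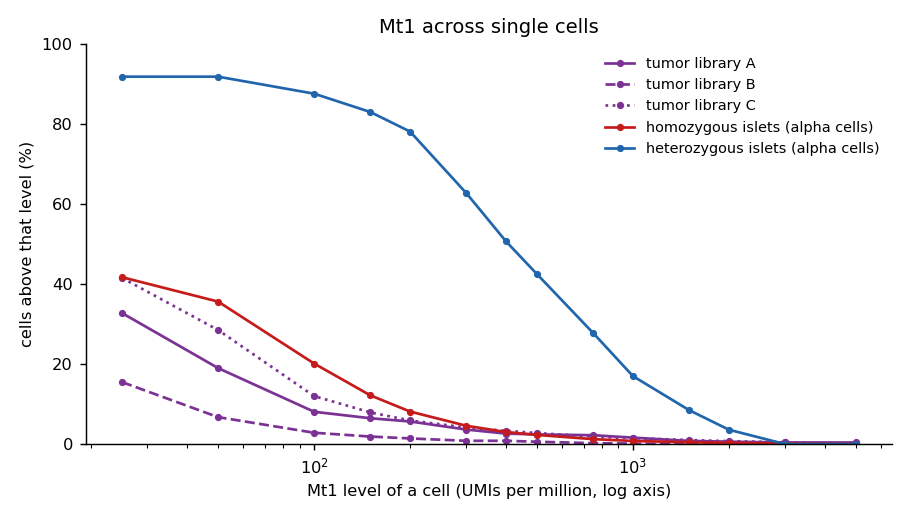
Share of tumor or islet alpha cells (percent) whose Mt1 level exceeds the value on the x axis (CPM, log axis), 1 line a library. At 500 CPM the tumor libraries lie between 0.591 and 2.77% and the homozygous alpha cells at 2.30%, while 42.5% of heterozygous alpha cells lie above.

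Mt1 and Mt2 varied together over groups of cells. Over the 16 groups of cells by type and library, Pearson's r of their log2 levels was 0.97, the highest of Mt1 among 6370 genes of 50 CPM or more in 1 group. The next were Uap1l1 (0.87) and Dpp7 (0.82) for Mt1, and Nr1h3 (0.76) and Uap1l1 (0.76) for Mt2. The groups share libraries, so this is a description. Across single cells of 1 library the relation varied with the cell type. Pearson's r was 0.76 in homozygous and 0.83 in heterozygous beta cells, but 0.19 in heterozygous macrophages and -0.06 in heterozygous endothelial cells. In tumors A, B and C it was 0.73, 0.34 and 0.80, where Spearman's rho was 0.15, 0.13 and 0.21. In alpha cells r was 0.67 in homozygous and 0.56 in heterozygous islets, with a rho of 0.22 and 0.56. The share of Mt2 among the UMIs of both genes was 29.5% (28.4 to 30.6%) in homozygous and 21.3% (20.7 to 21.8%) in heterozygous beta cells. In alpha cells it was 21.9% (20.1 to 23.9%) in homozygous and 25.9% (24.2 to 27.7%) in heterozygous islets. The mix differed between genotypes in opposite directions in the 2 cell types, with intervals that do not overlap and no replicate.

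For the tumors against islet alpha cells, the mean CPM over cells of each library was fitted with limma, 3 tumor libraries against 2 islet libraries of unlike genotype. The tumor and islet tables were deposited separately, scaled with different constants and to totals of exonic and of all UMIs, so tissue, table and handling cannot be told apart. Each table was brought back to whole UMIs, but the mean CPM of the fit kept the deposited totals of each table. The recovered UMIs of a cell were at a median of 1.0258 to 1.0299 times that total in tumors. In homozygous and heterozygous islets they were at 1.0196 and 1.0141 times. The alternatives on pooled CPM, edgeR and DESeq2 used recovered UMIs throughout. The median of all 10233 genes tested was 0.25 higher (log2) in tumors, and changes are given relative to it. Of all genes 2.08% were called higher and 0.137% lower at an adjusted p of 0.05, and of the 5 members 1 was called higher and none lower.

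The metallothioneins were not called, and their 2 islet libraries lay far apart. The mean of Mt1 over cells was 79.7, 15.2 and 81.7 CPM in tumor libraries A, B and C, against 74.9 CPM in homozygous and 607 CPM in heterozygous alpha cells. By this mean tumors A and C lay between the islet libraries and B lay below both. By pooled level A also lay below both, at 42.2 CPM against 65.4 CPM in homozygous alpha cells. Outside the cells of 500 CPM or more from at least 3 UMIs, the means were 25.8, 10.5 and 35.4 CPM in A, B and C. In homozygous and heterozygous alpha cells they were then 48.5 and 262 CPM. The relative log2 change was -2.42 (SE 0.94, limma adjusted p = 0.232, unadjusted p = 0.0496). For Mt2 it was -2.89 (SE 1.01, limma adjusted p = 0.187, unadjusted p = 0.0304). Neither was called in any of 15 alternatives, edgeR and DESeq2 among them.

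Slc30a1, which exports zinc across the plasma membrane, was the member called higher in tumors. Its mean level was 20.7, 20.7 and 21.6 CPM in tumor libraries A, B and C, against 3.59 CPM in homozygous and 8.91 CPM in heterozygous alpha cells. All 3 tumors lay above both islet libraries. The relative log2 change was 1.46 (SE 0.34, limma adjusted p = 0.0490). The call sits at the threshold: in 12 of 15 alternatives, each of the 5 with a library left out among them, the adjusted p was 0.0511 to 0.136 by limma or edgeR.

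**Figure D4:**
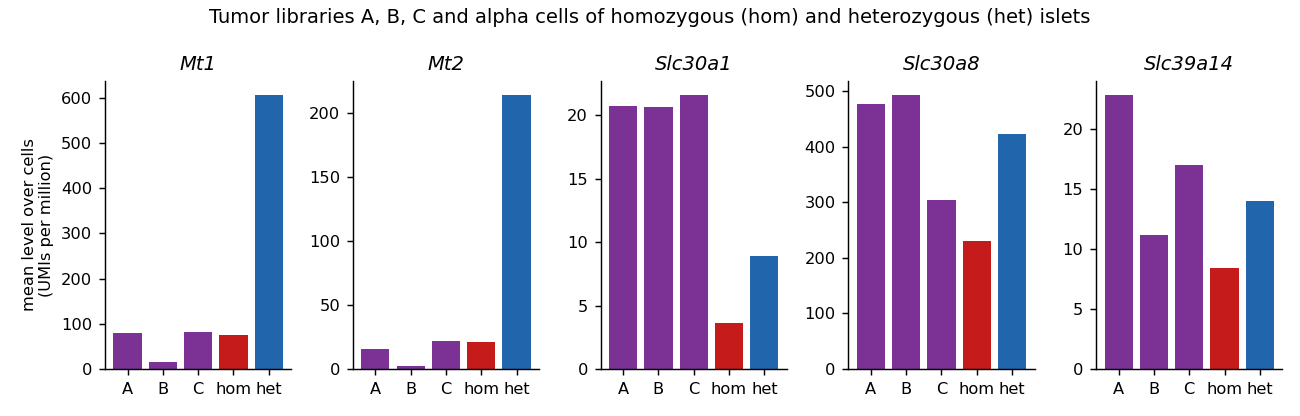
Mean level over cells (CPM) of the 5 genes in tumor libraries A, B and C and in alpha cells of homozygous and heterozygous islets, 1 bar a library, each panel with its own axis from 0. Slc30a1 is near 21 CPM in every tumor and at 3.59 and 8.91 CPM in the islets, while Mt1 and Mt2 stand out in the heterozygous library alone.

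The same exporter was lower in homozygous than in heterozygous islet cells. Pooled levels were 3.02 CPM in homozygous and 8.71 CPM in heterozygous alpha cells (ratio 0.347, 0.220 to 0.561) and 3.03 and 7.70 CPM in beta cells (0.393, 0.222 to 0.653). These rest on 67 and 28 UMIs in alpha cells and 17 and 133 in beta cells, below the 10 CPM that counting as called required. Endothelial cells had the most, with 97.1 CPM (73.2 to 126) in homozygous and 64.4 CPM (48.5 to 83.8) in heterozygous islets, a ratio of 1.51 (1.02 to 2.23). Endothelial markers summed to 4.78 to 38.7 CPM in the tumor cells, against 10683 CPM in homozygous and 12156 CPM in heterozygous endothelial cells. Genes with a pattern like that of Slc30a1 over the 16 groups included Sept9 (r 0.93) and Maff (0.92).

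Slc30a8 loads zinc into the insulin granules and is carried by alpha cells as well. It was at 461, 485 and 286 CPM in tumor libraries A, B and C, against 221 CPM (215 to 227) in homozygous and 407 CPM (385 to 430) in heterozygous alpha cells. The tumors and islets overlapped, and no change was called (relative log2 change 0.16, SE 0.36, limma adjusted p = 0.558). Without the homozygous islets the direction turned, to -0.13.

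Between the genotypes the alpha cell ratio of Slc30a8 was 0.542 (0.510 to 0.577), short of 2-fold. Relative to the median gene the log2 ratio was -0.51. In beta cells it was at 203 CPM in homozygous and 256 CPM in heterozygous islets (ratio 0.792, 0.741 to 0.845). Endothelial cells, which should lack it, had 17.7 and 24.6 CPM, far below alpha and beta cells.

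Alpha cell clusters of the homozygous islets differed in Slc30a8. Cluster 2.1 had 275 CPM (266 to 283) and cluster 2.2 had 126 CPM (119 to 135), and no UMI was found in the 15 alpha cells of cluster 2.6, which allows up to 28.5 CPM by the Poisson interval. The upper quartile of cells was at 397 CPM in cluster 2.1 and 192 CPM in 2.2. PP cells of that library had 31.1 CPM, so PP cells, like the delta cells above, lay below alpha and beta cells.

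The low value of tumor library C lay in 1 of its 2 main clusters. Cluster 4 (385 cells) had 106 CPM of Slc30a8 (99.0 to 113) and cluster 2 (697 cells) had 396 CPM (385 to 407), near the other tumors. The metallothioneins went the other way there, with Mt1 at 124 CPM in cluster 4 and 28.4 CPM in cluster 2 and Mt2 at 28.1 and 8.13 CPM. Beta cell markers summed to 6847 CPM in cluster 4 and 1199 CPM in cluster 2, and macrophage markers to 395 and 176 CPM. Alpha cell markers were at 445968 and 382012 CPM, and the part of these differences in the zinc genes was not tested. Slc30a1 was at 29.2 CPM in cluster 4 and 18.5 CPM in cluster 2, so both clusters lay above the islet alpha cells.

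After thinning to 5000 UMIs, Slc30a8 was found in 84.3, 87.6 and 62.2% of cells of tumors A, B and C, in 57.6% of homozygous and 82.6% of heterozygous alpha cells, and in 14.9% of heterozygous endothelial cells. Unthinned, the shares were 97.8, 99.5 and 86.8% in the tumors, 81.7% in homozygous and 91.5% in heterozygous alpha cells, and 4.67% of homozygous and 8.72% of heterozygous endothelial cells (median 2061 and 3587 UMIs). The closest genes over the 16 groups were Sphkap (r 0.89), Tmsb15l (0.89) and Tmsb15b2 (0.89). The last 2 are closely related copies between which counting could split reads.

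Slc39a14 imports zinc, iron and manganese and is best known from the liver. Its pooled level was 21.5, 11.0 and 16.4 CPM in tumor libraries A, B and C, against 7.31 CPM (6.23 to 8.53) in homozygous and 11.2 CPM (7.84 to 15.5) in heterozygous alpha cells. Tumor library B lay within the heterozygous interval and the levels of the other 2 tumors above it. The change was not called (relative log2 change 0.30, SE 0.35, limma adjusted p = 0.414). The alpha cell ratio between genotypes was 0.653 (0.453 to 0.965), and in beta cells it was 1.76 (1.18 to 2.58) on 44 homozygous and 77 heterozygous UMIs. The genes most like it were Nr4a2 (r 0.89), Lurap1l (0.86) and Dennd5b (0.85), at levels where single UMIs weigh.

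Among the 10 Slc30 exporters, 7 were tested in tumors against islet alpha cells. Of these 3 were higher and none lower, beside 2.08% and 0.137% of all genes. The median of the 7 was 0.16 relative to all genes. Besides Slc30a1 these were Slc30a4, an exporter of vesicle membranes, and Slc30a5, which loads zinc into the early secretory pathway. Slc30a4 had 34.7, 35.8 and 34.7 CPM in tumor libraries A, B and C, against 14.6 CPM in homozygous and 6.11 CPM in heterozygous alpha cells (relative log2 change 1.53, SE 0.34, limma adjusted p = 0.0414). Slc30a5 had 31.8, 29.2 and 36.6 CPM against 14.2 and 13.0 CPM (0.95, SE 0.23, limma adjusted p = 0.0446). All 3 tumors lay above both islet libraries for either gene. Slc30a4 kept its call in 6 and Slc30a5 in 5 of 15 alternatives.

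Slc30a6, the partner of Slc30a5, and Slc30a9, a mitochondrial exporter, were not called, with relative log2 changes of -0.08 and -0.21. Slc30a4 was also the 1 exporter of 6 measured that was higher by 2-fold in homozygous alpha cells (13.9 CPM against 6.84 CPM, ratio 2.03, 1.31 to 3.28). Of all genes measured in alpha cells 2.26% were higher by that much. Slc30a2, Slc30a3 and Slc30a10 were listed at 0 in tumor, alpha and beta cells.

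Of the 14 Slc39 importers 8 were tested (median 0.18 relative to all genes). None was called in either direction, beside 2.08% of all genes higher and 0.137% lower. None passed an unadjusted p of 0.05 by limma, and none was called in any alternative, edgeR and DESeq2 among them. Slc39a7, which releases zinc from the endoplasmic reticulum, was at 107, 112 and 91.3 CPM in A, B and C, against 75.9 CPM in homozygous and 98.4 CPM in heterozygous alpha cells. Relative log2 changes of the other 6 besides Slc39a14 ran between the -0.75 of Slc39a13 and the 0.35 of Slc39a1, with Slc39a3 at -0.62, Slc39a6 at 0.07, Slc39a9 at 0.29 and Slc39a11 at 0.30. Slc39a13 and Slc39a3 were lower in homozygous than in heterozygous alpha cells, at ratios of 0.508 and 0.533. None of 7 importers measured there passed 2-fold, beside 2.26% of all genes higher and 12.5% lower.

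Mtf1 was not called in tumors, where it stood at 21.7, 25.1 and 26.3 CPM in A, B and C against 13.3 CPM in homozygous and 20.2 CPM in heterozygous alpha cells (relative log2 change 0.29, limma adjusted p = 0.280). Of 8 tested genes of the metal response list, the sulfiredoxin Srxn1 was higher (42.3, 45.5 and 45.8 CPM against 17.6 and 19.4 CPM) and Hspa1a was lower (2.50, 4.42 and 21.9 CPM against 85.6 and 412 CPM). Of the glucocorticoid targets 1 of 8 was higher, Nfkbia, at 285, 278 and 428 CPM against 18.8 and 58.2 CPM. Of the IL6-STAT3 targets 2 of 7 were higher, the transcription factor Stat3 (148, 116 and 136 CPM against 41.7 and 48.7 CPM) and the co-regulator Bcl3. Of the 10 immediate early and stress genes Fosb was higher (698, 527 and 634 CPM against 14.1 and 117 CPM) and Hspa1a lower. None of the 3 zinc-bound hormone genes was called by limma. For all these lists the shares of all tested genes are 2.08% higher and 0.137% lower.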

How the data were processed

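Per the labels, polyA RNA of dissociated cells was made into droplet 3′ single-cell libraries. The authors deposited normalized UMIs, a signal, and each cell's total as a count (per the file headers all UMIs in islets and exonic UMIs in tumors). That UMIs were divided by this total and multiplied by a constant, 9936 in islets and 12219 in tumors, was inferred from each cell's smallest value. The submitters' processing notes name CASAVA 1.8, bcl2fastq 2.17, GSNAP and GRCm38. Whole UMIs were recovered (100% of values within 0.01 of a whole number, or 0.01% above 100 UMIs), and CPM were computed from them. Pooled levels were taken over the recovered totals, and the mean CPM of the limma fits over the deposited totals. Doublets called by Scrublet (scanpy 1.11.5, rate 0.06) were removed (18, 9 and 15 in tumors A, B and C, 1 in homozygous and 8 in heterozygous islets). No cell name was shared between libraries. Total UMIs were 10508498, 22893238 and 22161240 in the tumors, 34101553 in homozygous and 22174810 in heterozygous islets. All 3 tumor libraries are named Tumor 1 in the files, so they could not be tied to the numbered samples.

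Tumors (all kept cells) were compared with islet alpha cells (1525 homozygous, 306 heterozygous) with limma 3.58.1 (R 4.3.3, trended variance) on log2(mean CPM + 1), for genes with 5 CPM in 2 libraries, with Benjamini-Hochberg adjustment over all genes. Fold changes on that scale understate those of low genes. The labels do not say how islets of animals were pooled or whether the tumor libraries come from separate tumors. The p-values therefore measure the spread between these libraries only. The unit was a signal where counts were possible, so edgeR 4.0.16 and DESeq2 1.42.0 on recovered UMIs were alternatives: edgeR called 17 genes higher and 1 lower. Islet genotypes (1 library each) got ratios with exact conditional intervals, called at 2-fold among genes with 10 CPM in 1 genotype. A count of 0 allows 3 counts. On simulated data of the tumor design (10233 genes, dispersion 0.2) limma recovered 2.99, 40.3 and 98.5% of log2 changes of 1, 2 and 4, with 6 false among 100 calls. At dispersion 0.05 it recovered 43.3, 100 and 100%, with 10 false among 172 calls. Both simulated islet libraries had the same mean, so these shares do not cover genes that differ between the genotypes, such as the metallothioneins.

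The members, 8 gene lists and the cell type markers were chosen with earlier results of these data known. Named were the members, up to 4 called genes a list, zinc transporters with 10 CPM in an alpha, beta or tumor group, and the 3 most alike genes a member (predicted symbols left out; a gene that the rule names is not reported here). Further genes of the lists, named beside the metallothioneins, were chosen after their values were seen. Sequences are from RefSeq (GRCm38.p6), and 3 of 5 members matched.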

Additional observations from a re-analysis of the deposited data

Results flagged for a closer look

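For 4 of the genes, ratios went opposite ways between alpha cells and another cell type in the homozygous against heterozygous islets, with each ratio's exact interval on its own side of 1. The difference between the types was not tested, since each genotype has 1 library. For Mt1 the ratio was 2.92 in stellate cells and 0.116 in alpha cells. For Mt2 it was 8.24 in stellate cells, 1.40 in beta cells and 0.0933 in alpha cells. For Slc30a1 it was 1.51 in endothelial cells and 0.347 in alpha cells. For Slc39a14 it was 1.76 in beta cells and 0.653 in alpha cells.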

How the results depend on the processing

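No paired analysis was possible because the tumor libraries could not be tied to sample numbers and each islet genotype has 1 library. Of 242 recomputed values, 120 kept their direction, their side of the threshold or their size, 31 lost the threshold, 88 moved and 3 reversed. Many of the 88 were shares of cells with a UMI at another depth, which vary with depth by their nature. The causes of the other changes were not tested. The median gene was 0.25 higher in tumors, but 0.04 with TMM scaling and -0.02 with hormones left out. Against 213 genes higher and 14 lower in tumors, the counts were 6 and 0 with no filter, 39 and 5 with TMM scaling, 17 and 1 with edgeR, 393 and 262 with DESeq2 and 108 and 7 with cluster 2.1 alone as homozygous alpha cells. With hormone transcripts out of the totals 51 were higher, and with a pseudocount of 5 CPM 24 were lower. Leaving out 1 library gave 13 to 143 higher and 0 to 23 lower. Of the called genes 93.8% were higher, but 82.3% with hormones left out, 60.0% with DESeq2 and 73.6% without tumor library C. Slc30a1 (1.46 relative, log2) lost its call at 1.54 with a pseudocount of 0.5 CPM, 1.64 with no filter, 1.48 with TMM scaling, 1.54 with hormones left out, 1.48 on pooled CPM, 1.67 with edgeR, 1.49 with cluster 2.1 alone and at 1.05 to 1.84 with 1 library left out. It held with DESeq2, with a pseudocount of 5 CPM and with doublets kept, over an adjusted p range of 0.00346 to 0.136. With 1 library left out Mt1 was -3.77 to -1.09, Mt2 -4.38 to -1.43 and Slc39a14 0.06 to 0.54, none of them called. Slc30a8 was -0.13 to 0.43 with 1 library left out, negative without the homozygous islets. Slc30a7 reversed to 0.0075 with DESeq2 and was -1.64 to 0.61 with 1 library left out.

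In alpha cells the genotype ratio moved to 0.139 (Mt1), 0.111 (Mt2) and 0.646 (Slc30a8) with hormones left out, and to 0.127 (Mt1) with cells thinned to 5000 UMIs. At 50 CPM in 1 genotype, genes higher and lower by 2-fold were 52 and 174 in alpha, 30 and 40 in beta, 39 and 359 in delta, 185 and 92 in endothelial and 543 and 582 in stellate cells. With hormones left out 408 were higher in alpha, 377 higher and 406 lower in beta and 893 higher in delta cells. Depth limits Slc30a1, Slc39a14 and all values in endothelial and stellate cells, where single UMIs weigh.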

Other observations

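Slc30a7, a zinc exporter of the early secretory pathway on chromosome 3 (bases 115938973 to 116007414, GRCm38), was nearly missing from 1 tumor library. It had 20.4, 0.09 and 23.7 CPM in tumor libraries A, B and C, against 12.3 CPM in homozygous and 10.9 CPM in heterozygous alpha cells. In library B this was 2 UMIs in 22595284 (exact upper bound 0.32 CPM). The limma fit gave no call for the tumors as a group (relative log2 change -0.84, SE 1.19, adjusted p = 0.813).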
